A study of Mus musculus with 9 samples.

Results

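Etv5, Sall4, Uchl1 and Tfap2c are 4 regulators of spermatogonia, the mitotic germ cells from which meiosis starts, and their transcripts were followed in the testes of juvenile Spo11 knockout mice. They were taken as the probes whose only gene symbol in the platform annotation is one of these names, which gave 5 probes, 2 of them for Uchl1 and 1 for each of the other genes. The array held 7117 genes with at least 1 such probe, so the 4 genes are a very small part of it. Spo11, the gene knocked out, is needed for the programmed DNA breaks that start meiotic recombination. Whole-testis total RNA of 1 Spo11-/- sample and 1 wild type sample was hybridised together to each 2-colour spotted cDNA array. There were 4 arrays with mice of 15 days and 5 arrays with mice of 12 days. Cy3 marked the knockout RNA throughout at 15 days. At 12 days the dyes were swapped between arrays, with the knockout in Cy5 on replicates 1, 4 and 5 and in Cy3 on replicates 2 and 3. The labels describe the knockout animals as Spo11-/- and give no strain. Per the series design, experiments were run on 4 different pairs of littermates. As there are 5 arrays of 12 days, some may share RNA, and p-values would then be too small.

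Undifferentiated spermatogonia lie on the basement membrane of the seminiferous tubule and include the stem cells that renew themselves. Sertoli cells feed them with GDNF, which acts through the receptors Gfra1 and Ret, and FGF2 acts on them too. Under retinoic acid they begin to differentiate, take up Kit expression and then enter meiosis. Etv5 is an ETS family transcription factor induced by GDNF and FGF signalling and needed for stem cell renewal, and Sertoli cells express it as well. Sall4 is a zinc finger factor that recruits the NuRD deacetylase complex. Uchl1 is a deubiquitinating enzyme long used as a spermatogonial marker, and Tfap2c is an AP-2 transcription factor of the germ line.

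The RefSeq promoter table matched 2 of the 4 genes, Etv5 and Uchl1, which also had the highest mean ratios at 15 days, and their promoters are shown to set them side by side. Sequences are those of RefSeq, build GRCm38.p6, and cover the 250 bases before the first annotated start of each gene on its own strand, at chr16:22439571-22439820 (minus strand) for Etv5 and chr5:66675871-66676120 (plus strand) for Uchl1. Capitals mark matches on either strand to the ETS core GGAA, the AP-2 motif GCCNNNGGC, the GC box GGGCGG and the CCAAT box.
Etv5: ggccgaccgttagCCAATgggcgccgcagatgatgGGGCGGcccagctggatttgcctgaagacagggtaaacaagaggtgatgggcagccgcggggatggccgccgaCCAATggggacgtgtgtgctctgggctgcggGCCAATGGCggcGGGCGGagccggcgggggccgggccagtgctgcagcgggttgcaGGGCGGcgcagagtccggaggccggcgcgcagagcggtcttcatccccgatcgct
Uchl1: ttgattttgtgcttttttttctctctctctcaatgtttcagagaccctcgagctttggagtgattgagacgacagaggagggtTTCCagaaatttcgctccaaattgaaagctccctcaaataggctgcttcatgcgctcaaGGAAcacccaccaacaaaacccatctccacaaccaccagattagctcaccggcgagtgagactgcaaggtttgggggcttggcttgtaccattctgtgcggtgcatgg
The Etv5 window held 3 GC boxes, 3 CCAAT boxes and 1 AP-2 match, which overlaps a CCAAT box, and its GC content was 71.2%. The Uchl1 window held 2 ETS cores and none of the other motifs, with a GC content of 48.8%. Of 32841 such windows in the RefSeq table, 93.5% held the ETS core, 13.7% the AP-2 motif, 32.7% the GC box and 33.9% the CCAAT box. The median GC content of the windows was 52.4%. A match describes letters in the window and does not show binding.

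The deposited values are log ratios of the 2 channels, read here as log2, with each array centred on its median. Which RNA is on top of the ratio is not settled. By the dye labels, a Cy5 over Cy3 ratio at 15 days would be wild type over knockout. The 4 arrays at 15 days correlated with each other at r = 0.38 to 0.60 across probes. With 12-day replicate 3, which had the same dye orientation, they correlated at r = -0.38 to -0.33, and with replicate 2 at -0.25 to -0.11. At 12 days, arrays of opposite orientation correlated at 0.00 to 0.29 and those of the same orientation at -0.13 to 0.45. Because the knockout RNA carried Cy3 on every 15-day array, a gene's own dye effect and the genotype cannot be told apart in any 15-day value or call. The signs of the 15-day values below are the deposited ones. If the ratio is knockout over wild type, a value above 0 means more transcript in the knockout; if it is Cy5 over Cy3, it means less. Probes are not independent replicates, and probes with a value made up 86.9% to 91.3% of all on the 15-day arrays and 72.1% to 90.1% on the 12-day arrays. Ratios carry no level, so the labelled tissue could not be checked against its markers. In RNA of a whole testis, fewer cells of a type and less RNA per cell cannot be told apart.

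At 15 days all 4 genes had deposited ratios above 0 on every array with a value, and Etv5 stood far above the other genes. These 15-day values were known when the genes were chosen, so they are given as a description, and no test of them is used as support. Etv5 had log2 ratios of 1.02, 0.85, 1.96 and 0.96 on replicates 1 to 4. All 4 values lay in the top of their array, above 98.6% to 99.9% of the genes measured there, and replicate 3 was the highest. The mean was 1.20 ± 0.51 (SD, n = 4), a 2.29-fold ratio, and 5 of the 6958 genes tested at 15 days had a higher mean. With the sign turned the mean was -1.20.

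Uchl1, the deubiquitinating enzyme, had log2 ratios of 0.42, 0.41, 0.37 and 0.23 on replicates 1 to 4 at 15 days. These values were close together, with replicate 4 the lowest, and the mean was 0.36 ± 0.09 (SD, n = 4), a 1.28-fold ratio, or -0.36 with the sign turned. The 2 Uchl1 probes gave similar values at that age. The first had 0.35, 0.44, 0.41 and 0.11 on replicates 1 to 4. The second had 0.50, 0.37, 0.33 and 0.34. Their means were 0.33 ± 0.15 and 0.39 ± 0.08 (SD, n = 4 each), and the low value of replicate 4 came from the first probe.

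Sall4, the zinc finger factor, had log2 ratios of 0.37, 0.59 and 0.10 on replicates 1, 2 and 4 at 15 days and no value on replicate 3. Its mean was 0.35 ± 0.25 (SD, n = 3), a 1.28-fold ratio, or -0.35 with the sign turned. Replicate 4 was hardly above 0. Tfap2c, the AP-2 factor, had 0.52, 0.03, 0.21 and 0.43 on replicates 1 to 4, with a mean of 0.30 ± 0.22 (SD, n = 4), a 1.23-fold ratio, or -0.30 with the sign turned. Replicate 2 was next to 0 and replicates 1 and 4 were the highest.

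Ordered by mean ratio at 15 days, Etv5 was followed by Uchl1, Sall4 and Tfap2c. The lowest Etv5 value, 0.85, was above the highest value of any of the other 3 genes, 0.59 for Sall4. The values of Uchl1, Sall4 and Tfap2c overlapped, and their means differed by less than the spread of Sall4 or Tfap2c over the arrays. Etv5 was the highest of the 4 on each array. The arrays did not rank the other 3 alike: Tfap2c came second on replicates 1 and 4, Sall4 on replicate 2 and Uchl1 on replicate 3.

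**Figure D1:**
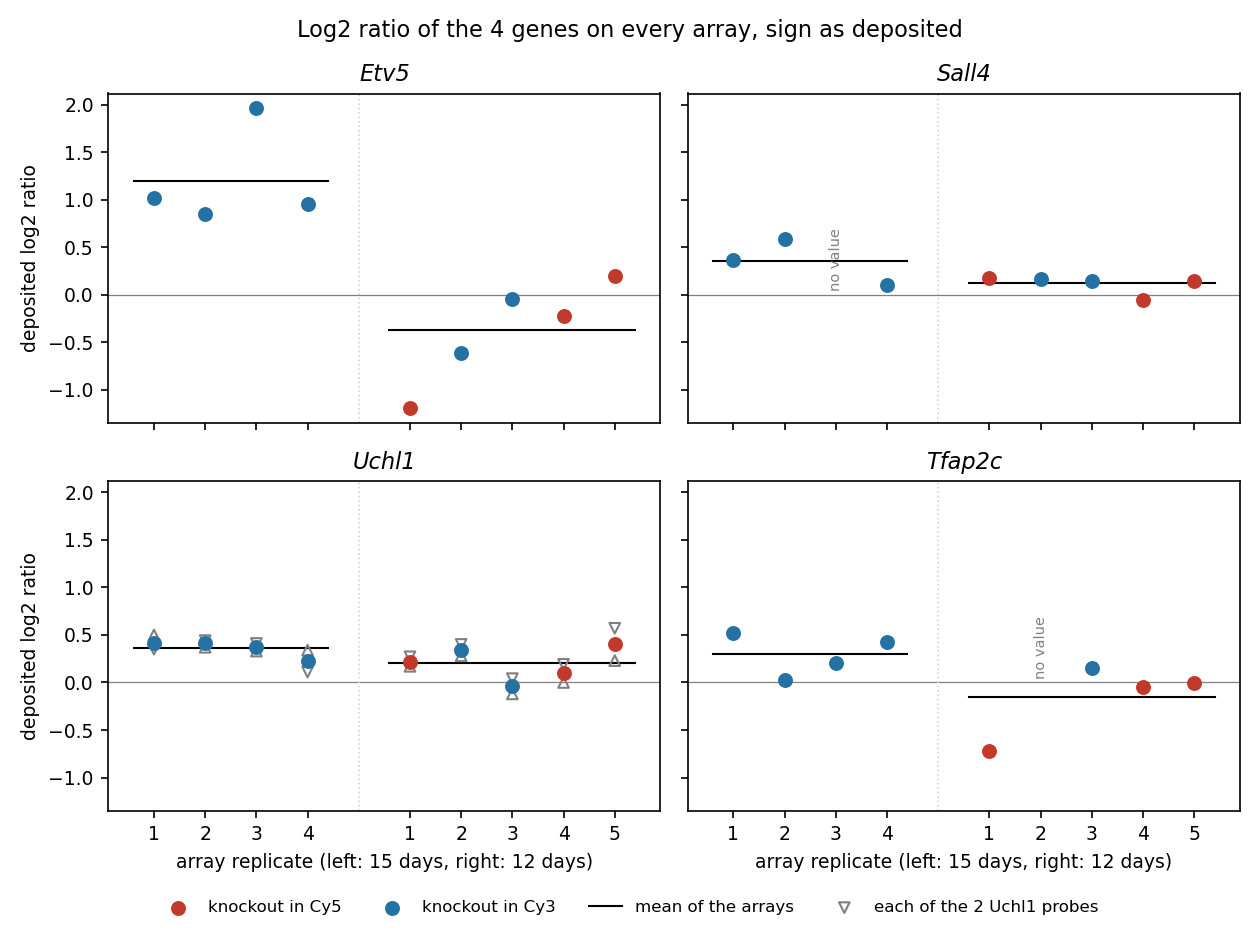
Deposited log2 ratio (vertical axis) of Etv5, Sall4, Uchl1 and Tfap2c on each array (horizontal axis, 4 arrays at 15 days on the left and 5 at 12 days on the right), coloured by the dye of the knockout RNA, with the mean of the arrays as a line and the 2 Uchl1 probes as triangles. At 15 days the points of all 4 genes lie above 0, with Etv5 between 0.85 and 1.96, and at 12 days Etv5 runs from -1.19 to 0.20.

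In the limma fit over all 12198 features at 15 days, which tested the mean of the 4 arrays against 0, 2 of the 4 genes, Etv5 and Uchl1, passed above 0 and none passed below (adjusted p under 0.05). Of all features 7.05% passed above 0 and 5.37% below. Among annotated genes 4.04% passed above 0 and 7.20% below, and 15.1% were above 0 on every array with a value. As the genes were chosen on this contrast, nothing is read from their count. On some arrays the probes next to a gene's probe in order of probe ID were also shifted. Positions of the spots on the array were not used. The median of the 100 probes on each side of Etv5 was -0.02, 0.10, 0.08 and 0.25 on replicates 1 to 4, small beside its own ratios. Averaged over the 2 Uchl1 probes these medians were 0.09, 0.07, 0.20 and 0.05, against the gene's own 0.37 on replicate 3. With the local median subtracted the 15-day means were 1.09 for Etv5, 0.31 for Sall4, 0.26 for Uchl1 and 0.24 for Tfap2c. Uchl1 then no longer passed, nor did it with any 1 of the 4 arrays left out. Etv5 passed in each of these fits, which is no support, since it was chosen on these same values.

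The 12-day arrays, with mice in which fewer germ cells have reached late meiotic prophase, hold both dye orientations. Here none of the 4 genes differed between knockout and wild type beyond the error. As deposited, Etv5 had -1.19, -0.22 and 0.20 on replicates 1, 4 and 5, with knockout in Cy5, and -0.61 and -0.04 on replicates 2 and 3, with knockout in Cy3. Its values were low on replicates 1 and 2 whichever dye the knockout carried, below all but 1.0% and 3.0% of the genes of those arrays. The array titles put replicates 1 and 2 in an earlier number range than replicates 3 to 5. The mean deposited ratio of Etv5 was -0.90 in the earlier range and -0.02 in the later one.

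Read as Cy5 over Cy3, the knockout over wild type estimate of Etv5 at 12 days was -0.04 on the log2 scale (SE 0.21, 95% interval -0.54 to 0.46, limma adjusted p = 1.0), above 0 on 3 of 5 arrays. It was -0.29 within the earlier title range and 0.02 within the later. The part of the ratio shared by both orientations, which would be the gene's own dye effect under this reading, was -0.36 (SE 0.21). Read as knockout over wild type on every array, the mean was -0.37 (SE 0.19, limma adjusted p = 0.58), below 0 on 4 of 5 arrays.

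Uchl1 at 12 days had deposited ratios of 0.22, 0.10 and 0.40 with knockout in Cy5, and 0.34 and -0.04 with knockout in Cy3. It was thus above 0 on 4 of 5 arrays, as was Sall4, and the sign did not follow the dye. As deposited, 25.3% of annotated genes were above 0 on all 12-day arrays with a value but at most 1. The first probe was the higher on 7 of the 9 arrays of both ages, with differences between probes from -0.23 to 0.34. The knockout over wild type estimate was 0.04 (SE 0.10, 95% interval -0.19 to 0.28, limma adjusted p = 1.0), being -0.06 within the earlier title range and 0.14 within the later. The shared part was 0.19 (SE 0.10), beside the mean ratio of 0.36 at 15 days. With every array read as knockout over wild type the mean was 0.20 (SE 0.09, limma adjusted p = 0.56).

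Sall4 at 12 days had deposited ratios of 0.18, -0.05 and 0.15 with knockout in Cy5, and 0.17 and 0.15 with knockout in Cy3. It had the narrowest spread of the 4 genes at this age, 0.12 ± 0.10 (SD, n = 5). The knockout over wild type estimate was -0.03 (SE 0.08, 95% interval -0.23 to 0.16, limma adjusted p = 1.0), above 0 on 2 of 5 arrays. It was 0.00 within the earlier title range and -0.05 within the later. With every array read as knockout over wild type the mean was 0.12 (SE 0.07, limma adjusted p = 0.64).

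Tfap2c at 12 days had deposited ratios of -0.72, -0.05 and -0.01 with knockout in Cy5 and 0.15 on replicate 3, with knockout in Cy3; replicate 2 had no value. Replicate 1 was far below the others. Read as Cy5 over Cy3, knockout over wild type was thus below 0 on 4 of 4 arrays. Of annotated genes, with values on 4 or 5 arrays, 5.27% had 1 sign on every array with a value. Tfap2c had a value on 4 arrays, where a single sign is met more easily than on 5. Its values on replicates 4 and 5 were next to 0. Its estimate of -0.21 (SE 0.17, 95% interval -0.64 to 0.23) did not pass, with a limma adjusted p = 1.0, and it was -0.09 within the later title range and not to be had within the earlier. With every array read as knockout over wild type the mean was -0.16 (SE 0.15, limma adjusted p = 0.75). Over all 10075 features limma passed 0 at 12 days (0%), with 269 (2.67%) at an unadjusted p under 0.05, none of them among the 4 genes.

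**Figure D2:**
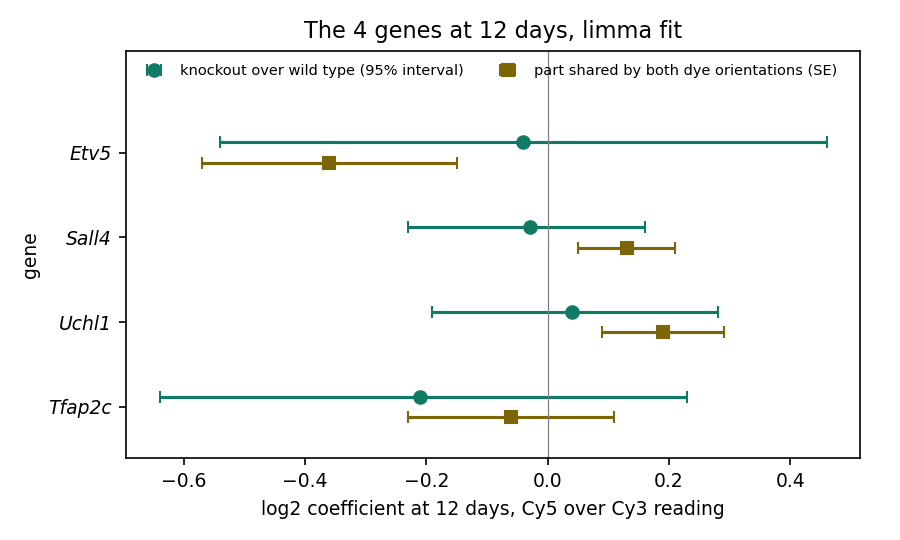
Limma coefficients at 12 days on the log2 scale (horizontal axis) for the 4 genes (vertical axis), reading the ratios as Cy5 over Cy3: circles are knockout over wild type with the 95% interval, squares the part shared by both dye orientations with its SE. All 4 intervals of the knockout coefficient include 0, and the shared part is lowest for Etv5, at -0.36, and highest for Uchl1, at 0.19.

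Set side by side, the 2 ages had mean deposited ratios of 1.20 at 15 days and -0.37 at 12 days for Etv5, 0.36 and 0.20 for Uchl1, 0.35 and 0.12 for Sall4, and 0.30 and -0.16 for Tfap2c. The Etv5 arrays of the 2 ages did not overlap as deposited, since the lowest at 15 days was 0.85 and the highest at 12 days 0.20. With all arrays read as Cy5 over Cy3 and turned to knockout over wild type they did overlap, from -1.96 to -0.85 at 15 days and from -1.19 to 0.61 at 12 days. The difference between the ages was not tested, because the 15-day values chose the genes. The share of all genes whose ages do not overlap is not given, so nothing is read from the gap of Etv5.

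Some genes followed each of the 4 closely over the arrays. Likeness was measured as the root mean square difference of deposited log2 ratios over the arrays on which the gene had a value (9 arrays for Etv5 and Uchl1, 8 for Sall4 and Tfap2c). The nearest genes to Etv5 were Kat2a, a histone acetyltransferase, at 0.36, Slc39a4, a zinc transporter, at 0.48 and Garre1 at 0.51, where the median over 5380 genes was 1.01. Kat2a had 0.81, 0.89, 1.21 and 0.32 on the 15-day arrays, and -0.96, -0.49, 0.05, -0.39 and -0.06 on the 12-day arrays. Like Etv5 it was highest on 15-day replicate 3 and lowest on 12-day replicate 1. Ratios were widely spread on both arrays. Their SD over all probes was 0.469 on 15-day replicate 3, the widest at that age. It was 0.434 on 12-day replicate 1, as on replicate 5, the widest at 12 days. Slc39a4 was below 0 on all 5 arrays at 12 days, from -0.95 to -0.44, unlike Etv5. At 15 days Kat2a averaged 0.81, Slc39a4 0.92 and Garre1 0.78. Genes nearest to any of the 4 were chosen partly on the 15-day values, so these means are a description with no test.

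The nearest genes to Uchl1 were Homer2, a scaffold protein gene, at 0.10, the TFIID subunit gene Taf11 at 0.11 and Mtmr12 at 0.14, with a median over all genes of 0.41. Homer2 had 0.39, 0.33, 0.35 and 0.33 at 15 days (mean 0.35), and Taf11 averaged 0.29 and Mtmr12 0.21. Sall4 was followed most closely by the deubiquitinase gene Usp48 at 0.11, and by 1700008J07Rik and AI449310 at 0.12 each, with a median of 0.38. Usp48 averaged 0.53 at 15 days over its 3 probes, and 1.27 by the 1 probe with most values. Nearest to Tfap2c were Khdc1a at 0.13, the ubiquitin ligase gene Rnf41 at 0.16 and the cullin gene Cul5 at 0.17, with a median of 0.45. Their 15-day means were 0.20, 0.25 and 0.19, and with 1 probe each Khdc1a lay at -0.01 and Cul5 at -0.17. Small ratios leave little room for distance. From a flat profile at 0, Uchl1 lay 0.31, Sall4 0.27, Tfap2c 0.36 and Etv5 0.97. The distances to the nearest genes are to be read beside these, and they do not rank the 4 genes by closeness of their neighbours.

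**Figure D3:**
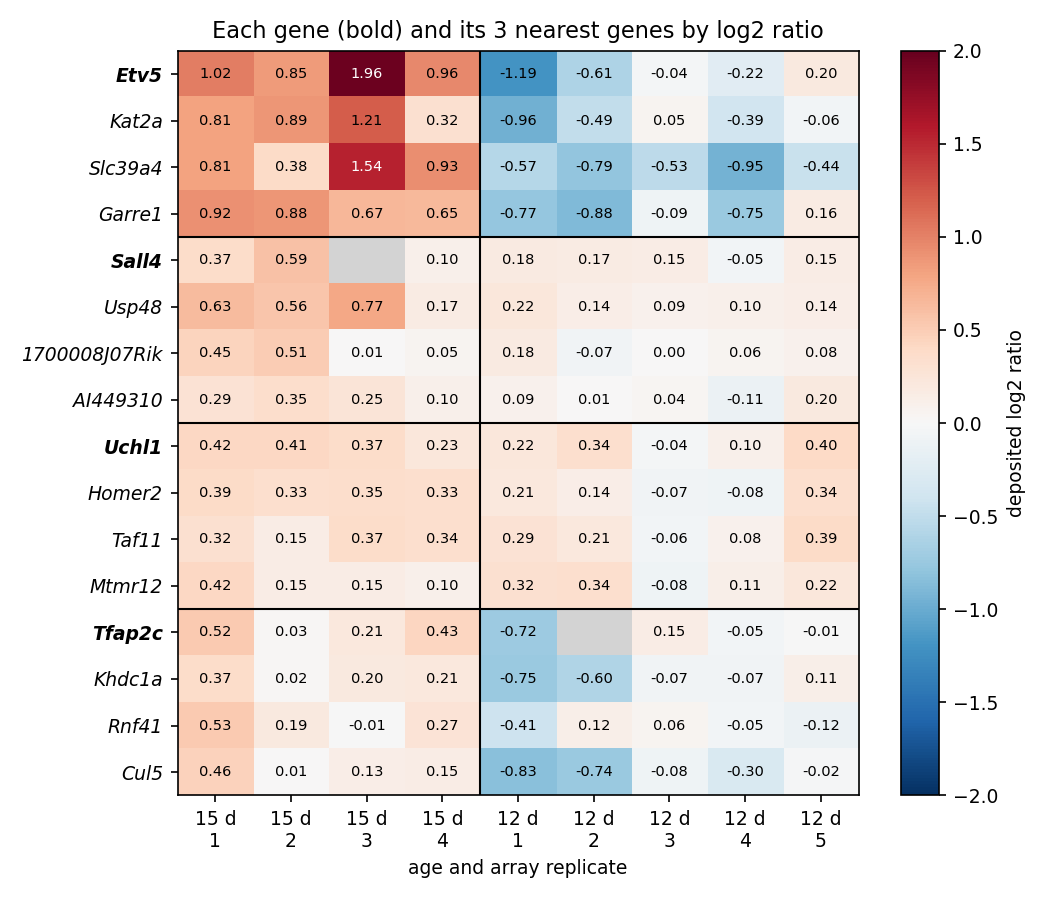
Deposited log2 ratio, as colour and number, of Etv5, Sall4, Uchl1 and Tfap2c (bold) and the 3 nearest genes of each (rows) on the 4 arrays at 15 days and the 5 arrays at 12 days (columns), with grey for no value. The Etv5 block is above 0 on all 15-day arrays and mostly below 0 at 12 days, whereas the Uchl1 and Sall4 blocks are above 0 on most arrays of both ages.

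Other genes of undifferentiated spermatogonia mostly lay above 0 at 15 days, but few passed. Of 35 genes listed 15 were on the array, and their median ratio was 0.30, or 0.22 for the 11 without the 4 genes above, against -0.02 over all 6958 annotated genes. Of the 11, 8 had a mean above 0, as had 46.3% of all annotated genes, and 1 passed above 0, where 4.04% of annotated genes did; none passed below. That gene was Eomes, a T-box factor of a subset of stem cells, with 0.76, 0.29 and 0.56 on replicates 1, 3 and 4 (mean 0.54, limma adjusted p = 0.037). Gfra1, the GDNF receptor, had 0.80, 0.41 and 0.07 on replicates 1 to 3 (mean 0.43, limma adjusted p = 0.10). The adhesion gene Cdh1 had 0.31, 1.03, 0.33 and 0.10 (mean 0.44, limma adjusted p = 0.079). Foxo1, a factor needed for stem cell maintenance, lay at 0.15 and Bmi1 at 0.01, and neither passed. The 3 with means below 0 were the surface protein genes Epcam (-0.12), Itgb1 (-0.06) and Cd9 (-0.04), which did not pass. Eomes was short of the threshold when any 1 of the 4 arrays was left out, and when local medians were subtracted.

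Of 16 genes of differentiating spermatogonia 7 were tested at 15 days, with a median of 0.15. Above 0 passed 1, where 4.04% of annotated genes did. The gene that passed was the cyclin gene Ccnd1, with 0.30, 0.36, 0.57 and 0.43 (mean 0.41, SE 0.10, limma adjusted p = 0.031). Ccnd1 lost its call without any 1 array and with local medians subtracted. All 4 values were above 0. The other D-type cyclins lay at 0.28 (Ccnd3) and 0.13 (Ccnd2), and the receptor gene Kit at 0.15, none of them past the threshold.

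**Figure D4:**
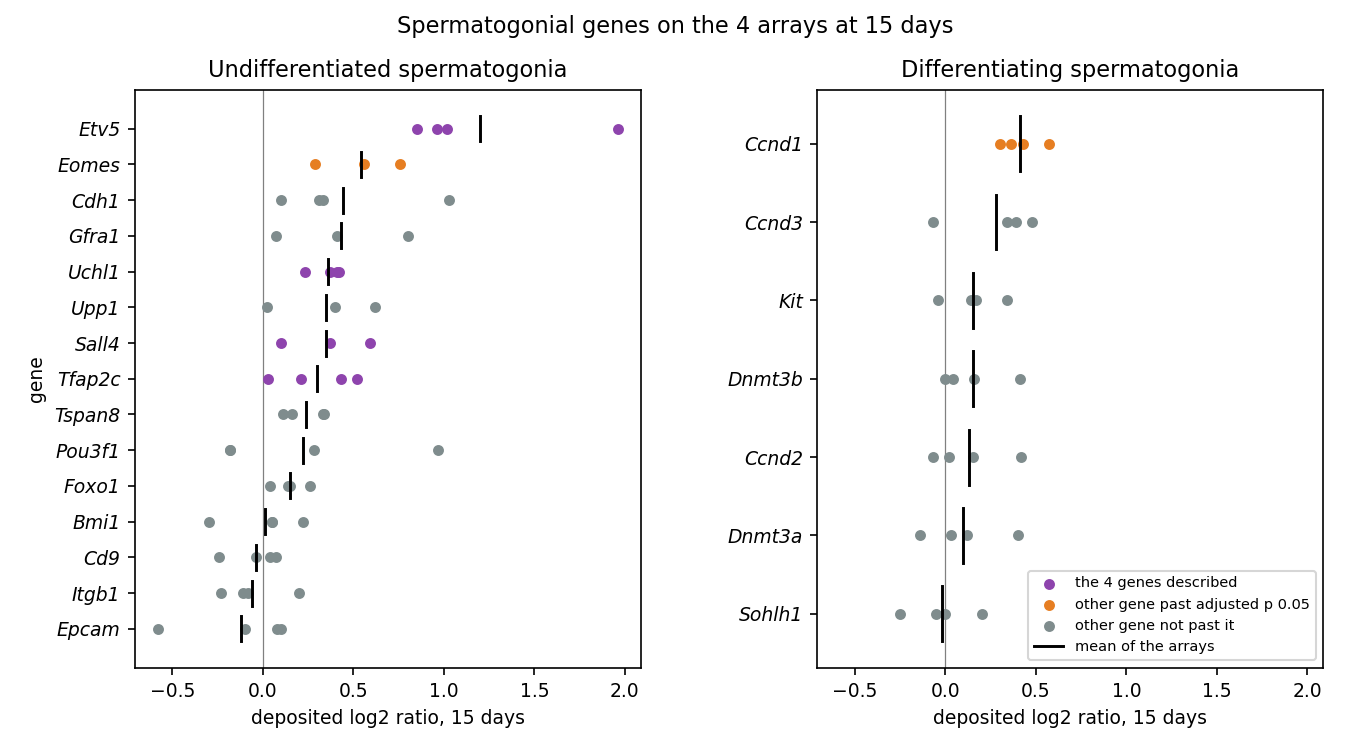
Deposited log2 ratios at 15 days (horizontal axis, 1 point per array) of the listed genes of undifferentiated (left) and differentiating (right) spermatogonia, ordered by mean (black bar), with the 4 genes described in purple and other genes past the threshold in orange. Etv5 lies apart at a mean of 1.20, and Eomes (0.54) and Ccnd1 (0.41) are the other genes past the threshold.

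Etv5 acts at the end of GDNF and FGF signalling. Of 35 genes listed with these pathways, Csf1 among them as a further cytokine gene, 18 were tested at 15 days, with a median of 0.03. Passing above 0 were 2 and below 0 none, beside 4.04% and 7.20% of annotated genes. Spry4, a feedback inhibitor induced by FGF signalling, had 0.24, 0.43, 1.03 and 0.51 on replicates 1 to 4 (mean 0.55, SE 0.13, limma adjusted p = 0.031). Like Etv5 it was highest on replicate 3, the 15-day array with the widest spread over all probes. Csf1, a cytokine gene that supports stem cell renewal, had 0.63, 0.88, 0.70 and -0.02 (mean 0.55, SE 0.15, limma adjusted p = 0.040), and at 12 days it was below 0 on all 5 arrays as deposited, from -1.19 to -0.27. At 12 days 13.3% of annotated genes had 1 sign on every array as deposited. Fgfr1 lay at -0.23, Fgfr2 at 0.06 and the signal inhibitor gene Spred1 at 0.35, and none passed. Spry4 passed without replicate 1 only, and Csf1 without replicate 4 only, among the fits with 1 array left out. Scaling of the arrays also ended the call of Csf1.

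Of 26 ETS family genes 10 were tested at 15 days, with a median of 0.16. Etv5 apart, 7 of 9 had a mean above 0, as had 46.3% of annotated genes. None of the 9 passed in limma, and 2 of them had an unadjusted p under 0.05. The closest relatives of Etv5, Etv1 and Etv4, were not analysed here. The highest of the 9 were Spic at 0.36 and Etv6 at 0.30. Etv5 was chosen on its values at this age, so nothing is read from its place above them. Of 8 genes known to depend on Etv5, only Cxcr4, a chemokine receptor gene, was measured. It had 0.02, -0.03, 0.40 and -0.03 at 15 days, and at 12 days, as deposited, -0.98, -0.73, -0.43, -0.44 and -0.44.

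Sall4 works with the NuRD complex. Of 14 other genes of the Sall family and NuRD tested at 15 days, 2 passed below 0 and none above, where 7.20% of annotated genes passed below, and the median was -0.07. The methyl-CpG binding subunit gene Mbd3 had -0.51, -0.51, -1.02 and -0.19 (mean -0.56, SE 0.14, limma adjusted p = 0.031). Mta2, another subunit, had -0.37, -0.28, -0.66 and -0.49 (mean -0.45, SE 0.11, limma adjusted p = 0.029). Both were below 0 on all 4 arrays, opposite in sign to Sall4. Gatad2b, a further subunit, had 0.52, 0.48, 0.20 and 0.24 (mean 0.36, limma adjusted p = 0.054), the same sign as Sall4, and 6 of the 14 genes had means above 0. Mbd3 kept its call without replicate 4 only and Mta2 lost it without any 1 array. Of the Sall4 relatives only Sall2 was measured, at 0.16, which did not pass.

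Among the relatives of Uchl1, Uchl3 and Uchl5 had means on the other side of 0 and Bap1 on the same side. Uchl3 had -0.45, -0.33, -0.24 and 0.05 at 15 days (mean -0.24, limma adjusted p = 0.18), and the proteasome-bound Uchl5 had -0.36, -0.82, -0.35 and -0.15 (mean -0.42, limma adjusted p = 0.055), so neither passed. Bap1, a nuclear deubiquitinase of the family, had -0.02, 0.05, 0.06 and 0.25 (mean 0.09), which did not pass. Uchl1 was above 0 and Uchl5 below 0 on all 4 arrays. Of annotated genes 15.1% were above 0 on every array with a value. Uchl1 was chosen on its values at this age, so nothing is read from this contrast. Of 5 tested genes of the UCH family and of ubiquitin other than Uchl1, Nedd8, a ubiquitin-like protein gene, passed below 0 at -0.47 (SE 0.10, limma adjusted p = 0.024), and lost its call without replicate 1, 3 or 4. None passed above 0. Of annotated genes 7.20% passed below 0 and 4.04% above.

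Of 9 AP-2, partner and primordial germ cell genes tested beside Tfap2c at 15 days, 7 had a mean above 0, as had 46.3% of annotated genes. None passed in limma, and their median was 0.12. Tfap2e, the only measured relative of Tfap2c, had 0.28, -0.10, 0.94 and 0.76 (mean 0.47, limma adjusted p = 0.086). The pluripotency gene Pou5f1 lay at 0.31 and Dppa3 at -0.18. At 12 days no gene of these 8 lists passed, or reached an unadjusted p under 0.05.

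Markers of other testis cells were also measured. Their lists were drawn up with earlier results of these data known, so the counts are a description. Of 15 pachytene spermatocyte markers 5 were tested at 15 days and 4 passed below 0, with an array median from -1.97 to -0.99, and the array median at 12 days ran from -0.18 to 1.16 as deposited. Of 12 early meiotic prophase genes tested 3 passed below 0 and 1 above. None of 8 Sertoli cell genes passed in limma, nor had any an unadjusted p under 0.05, and their array median ran from -0.04 to 0.17. Single markers departed from these medians. The pachytene gene Mov10l1 lay at 0.05, and the early prophase gene Mei1 was the one above 0, at 0.73. The Sertoli gene Wt1 had -0.06, -0.07, 1.35 and 0.63 (mean 0.46), high on replicates 3 and 4, and Inha lay at 0.22 and Clu at 0.19. Of 6 Leydig genes 1 passed above 0, of 6 peritubular genes 1 each way, the 1 macrophage gene below and 1 of 4 endothelial and blood genes above. Of annotated genes 4.04% passed above 0 and 7.20% below at 15 days. The part of these marker genes in the values of the 4 genes was not tested.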

How the data were processed

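Log ratios of the 2 channels were deposited by the authors, 1 column per array, and were read here as log2. GenePix was used for scanning and spot extraction, per the series design text; the authors then centred the arrays on their medians, and each deposited column has a median of 0. The sources used here do not give the log base, background correction or direction. No signal intensities were used, so the number of arrays limits the precision.

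Of 16128 probes, 9604 had 1 gene in the platform annotation, 213 several and 6311 none; 98.9% of the first were matched by Entrez ID to RefSeq (GRCm38.p6). Probes of a gene were averaged; probes without 1 gene stayed single features. Tests used limma 3.58.1 in R 4.3.3 (moderated two-sided tests by lmFit and eBayes, adjusted by Benjamini-Hochberg over all features, threshold 0.05): at 15 days the mean against 0 (at least 3 values), at 12 days a knockout coefficient with a dye intercept (at least 4 values, both orientations). Replicate numbers follow deposit order. The fits were tested on simulated data.

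The 4 genes, the gene lists and the tests were chosen with earlier results of these data known. Named besides the 4 were measured relatives, the 3 nearest genes of each, and up to 4 genes of smallest p from each list among those past the threshold at 15 days. Eomes, Ccnd1, Csf1, Spry4, Mbd3, Mta2 and Nedd8 entered by the last part. Genes named that did not pass, other than relatives and nearest genes, were chosen after their values were seen. Alternatives covered scaling, quantile normalization, single probes, local medians, thresholds, missing values, dye terms, the title range, the direction and each array left out.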

Additional observations from a re-analysis of the deposited data

Results flagged for a closer look

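Etv5 on 15-day replicate 3, at 1.96, stood farther from the other 3 arrays than Dixon's criterion allows for 4 values, the others lying between 0.85 and 1.02. Without it the mean was 0.94. By the same criterion Sall2 on 15-day replicate 1 was low at 0.03, against 0.19 to 0.22 on the other arrays. Rnf41 on 12-day replicate 1 was low at -0.41, read as knockout over wild type under Cy5 over Cy3. These 3 came from 51 groups of arrays examined, and chance gives about 1 in 20.

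For some genes every array of one age lay on one side of 0 and every array of the other age on the opposite side, under one of the readings. With all arrays read as knockout over wild type, the mean at 15 days minus that at 12 days was 1.57 for Slc39a4, 0.62 for Spry4, 0.59 for Cul5 and -0.67 for Mta2. With the 15-day arrays read as knockout over wild type and the 12-day arrays as Cy5 over Cy3, it was 0.53 for Tfap2c. These differences were not tested, and the share of all genes with such a pattern is not given. The genes were chosen wholly or partly on their 15-day values, so nothing is read from the pattern. With single probes Cul5 lay at -0.17 at 15 days.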

How the results depend on the processing

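With the sign turned, the 15-day means were -1.20 for Etv5, -0.35 for Sall4, -0.36 for Uchl1 and -0.30 for Tfap2c. Subtracting the median of the 100 probes on each side in order of probe ID moved the Uchl1 mean to 0.26. Of the listed genes of undifferentiated spermatogonia this step left 1 past the threshold, Etv5, in place of 3 (Etv5, Uchl1 and Eomes). The same count was 1, again Etv5, with any 1 array left out. It was also 1 when 1.5-fold and an adjusted p below 0.01 were required. Etv5 and Uchl1 were chosen on the 15-day values, so only Eomes describes the rest of the list, and it passed in none of these alternatives. The number of features passing at 15 days was 1515, 242 at the stricter threshold, and between 357 and 1021 with 1 array left out (711, 586, 357 and 1021 without replicates 1 to 4); fewer arrays entered these fits. Scaling, quantile normalization and single probes gave 1566, 1621 and 1895. Local medians subtracted gave 1883, with 909 above 0 and 974 below, against 860 and 655 without that step. At 12 days limma passed 0 features under each alternative, with 194 to 607 at an unadjusted p under 0.05 when 1 array was left out and 910 with every array read as knockout over wild type. With 1 array left out, the knockout estimate at 12 days ran from -0.19 to 0.16 for Etv5, from -0.06 to 0.00 for Sall4, from -0.05 to 0.14 for Uchl1 and from -0.27 to -0.09 for Tfap2c. Sall4 was 0.12 with every array read as knockout over wild type. With single probes Cul5 lay at -0.17, Khdc1a at -0.01 and Usp48 at 1.27 at 15 days; the cause was not tested. No paired analysis was possible because replicate numbers follow the order of deposit and pair no arrays; the ratio on each array is itself taken within 1 knockout and wild-type pair. Signal over background is unknown.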

Other observations

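Nanog, a pluripotency factor gene, had a value on 15-day replicates 2 and 4 only, at 0.64 and 1.17, too few to be tested. At 12 days, as deposited, it had -0.11, -0.01 and -0.32 on replicates 3 to 5. The ETS gene Spdef, also untested, had -0.22 and 0.54 on 15-day replicates 3 and 4.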
